A study of Mus musculus with 3 samples.

Results

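The genes described here are 10 Kruppel-like factors, Klf2, Klf3, Klf4, Klf6, Klf7, Klf9, Klf10, Klf11, Klf13 and Klf16, taken by gene symbol from the 55536 gene identifiers measured. Each symbol matched 1 identifier. The RNA was isolated with the chromatin of BMDM (bone-marrow-derived macrophages), primary mouse cells of the C57BL/6J strain. The cells had been given Lipid A, the part of bacterial lipopolysaccharide that Toll-like receptor 4 recognises, at 100 ng/ml for 12 h, kept without it for 12 h, and given it again at 100 ng/ml for 10 min. All 3 libraries belonged to this condition, and no untreated or singly treated cells were analysed here, so the values are levels and not responses. Age and sex are labelled as not collected. The labels describe biological replicates from separate biosamples that share a donor identifier, and p-values therefore measure only the spread between these 3 libraries.

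Kruppel-like factors are transcription factors with zinc fingers at the C-terminal end that bind GC-rich and CACCC-type sites, and they differ mainly in the rest of the protein. By the cofactors they recruit, family members are commonly sorted into mostly activating factors (Klf2, Klf4, Klf6 and Klf7 among those measured here), repressors that bind the corepressor CtBP (Klf3), and factors that bind the Sin3A corepressor (Klf9, Klf10, Klf11, Klf13 and Klf16). In macrophages, Klf2 is known for restraining inflammatory genes, Klf4 for monocyte differentiation and alternative activation, and Klf6 for promoting inflammatory gene expression. RNA on chromatin is largely RNA still being made or processed, so annotated introns can contribute to a gene's value.

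Library totals ranged from 13538605 to 19949204 expected counts on genes. RNA input was 1 µg, 250 ng and 500 ng for replicates 1, 2 and 3, with 1 library at each amount, so input and replicate cannot be told apart. All 10 macrophage markers reached a TPM (a level scaled to transcript length and to a fixed library total) of at least 1 in all libraries; the highest were Adgre1 at 303 ± 76.5 TPM, Lyz2 at 143 ± 39.0 and Csf1r at 139 ± 11.5, and the lowest was Cd14 at 15.6 ± 7.61 (SD, n = 3). Of 39 markers of other cell types, 2 passed the same threshold, both endothelial. These were Vwf, at 26.5, 21.7 and 36.5 TPM, and Kdr, at 10.3, 2.79 and 4.04 TPM. The 5 endothelial markers summed to between 24.7 and 40.6 TPM, while Cdh5, Tek and Erg stayed at or below 0.14 TPM in every library. The summed markers of the 7 remaining cell types were at or below 1.39 TPM. These marker levels are from the gene tables. In the read-based tables, described below, the T cell marker Cd3d was at 13.7 ± 1.96 TPM, Cd3g at 1.03 ± 0.270 and Cd3e at 0.0751 ± 0.0234. What part the endothelial genes have in the Klf values was not tested. In bulk RNA, fewer cells of a type and less RNA per cell cannot be told apart.

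3 stretches of transcript sequence are shown first because they lie in transcripts that are named in the results on Klf10, Klf6 and Klf13. They are from GENCODE M21 on mm10, written 5′ to 3′. The first is exon 2 of Klf10-204, at chr15:38300267-38300417 on the minus strand, a coding exon of 151 bases that lies in intron 1 of the longest Klf10 transcript, Klf10-201. Its capitals mark a run of 33 A, from base 27 to base 59 of the exon. Next is the start of Klf6-202, a transcript annotated as retained intron, at chr13:5864678-5864797 on the plus strand. Its 90 lower-case bases lie in intron 1 of Klf6-201, and its 30 capitals are the first bases of exon 2 of Klf6-201. Last is a stretch of 120 bases of Klf13-203, also annotated as retained intron, at chr7:63936110-63936229 on the minus strand. It lies inside intron 1 of Klf13-201 and carries no capitals.
Klf10-204 exon 2: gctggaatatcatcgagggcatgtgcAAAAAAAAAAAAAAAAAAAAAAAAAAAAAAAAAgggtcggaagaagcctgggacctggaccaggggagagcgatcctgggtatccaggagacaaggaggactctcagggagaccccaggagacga
Klf6-202 start: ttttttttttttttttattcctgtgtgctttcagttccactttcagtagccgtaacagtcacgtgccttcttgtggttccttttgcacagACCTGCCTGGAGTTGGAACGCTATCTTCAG
Klf13-203 stretch: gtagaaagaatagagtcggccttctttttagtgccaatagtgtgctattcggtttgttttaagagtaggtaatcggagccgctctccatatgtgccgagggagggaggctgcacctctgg

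In the gene tables, 3 members held most of the family's TPM. There Klf6, Klf13 and Klf3 together held 89.1% ± 1.73 of the members' summed TPM (SD, n = 3), and Klf6 alone held 47.0% ± 3.86. In a second set of tables, which the authors made straight from the reads (the read-based tables), these shares were 55.9% ± 9.34 and 30.01% ± 7.68, and Klf10 was the highest member by mean TPM. Levels below are from the gene tables unless the read-based ones are named. Between the highest member of each library, Klf6, and the lowest, the TPM ratio was 470, 406 and 242 in replicates 1, 2 and 3. The lowest was Klf4 in replicates 1 and 2 and Klf9 in replicate 3. Of the 10 members, 7 were detected, meaning a TPM of at least 1 in all 3 libraries, where 45.6% of 22028 protein-coding genes were detected. The undetected members were Klf4, Klf9 and Klf11.

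Among the mostly activating factors, levels ran from the top to the bottom of the family. Klf6 was at 98.8, 85.4 and 70.3 TPM in replicates 1, 2 and 3, on 4194, 4175 and 3631 expected counts. This is 84.8 ± 14.3 TPM, above 97.0% of protein-coding genes. In the gene tables, every Klf6 library lay above every library of the other 9 members. Klf7, known mainly from neuronal development and adipocyte biology, was at 6.53, 8.63 and 5.83 TPM, with replicate 2 the highest. Klf2, which the ERK5-MEF2 pathway induces in endothelium, was at 3.44, 4.26 and 2.62 TPM, on 75, 115 and 69 expected counts. Klf2 was therefore detected, but 24.7 times below Klf6 by mean TPM. Klf4 was at 0.21, 0.21 and 0.33 TPM, on 8, 9 and 11 rounded counts, which is above the limit of 3 counts that a count of 0 allows in any library. Such limits cover counting error only.

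The CtBP-binding repressor Klf3 ranked below Klf6 and Klf13 only. It was at 35.1, 35.1 and 28.5 TPM, with replicate 3 the lowest, and its mean of 32.9 ± 3.83 TPM lay above 90.1% of protein-coding genes.

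Of the Sin3A-binding factors, Klf13 was the highest in the gene tables, while Klf10 was the highest in the read-based ones, at 121, 166 and 176 TPM. Klf13, known for driving the chemokine gene Ccl5 late in T cell activation, was at 41.9, 41.5 and 44.0 TPM, and its coefficient of variation of 3.19% was the smallest of the 10 members. Klf10, first described as a TGF-beta-inducible early gene, was at 5.69, 7.38 and 6.93 TPM. Klf16 was at 1.01, 1.41 and 2.28 TPM, on 33, 58 and 91 counts. Replicate 3 of Klf16 was 2.26 times replicate 1, the widest ratio of any member. The last pair did not reach the detection threshold in any library. Klf11, a close relative of Klf10 that is also inducible by TGF-beta, was at 0.23, 0.37 and 0.41 TPM. Klf9, which glucocorticoids and thyroid hormone induce in many tissues, was at 0.24, 0.38 and 0.29 TPM.

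**Figure D1:**
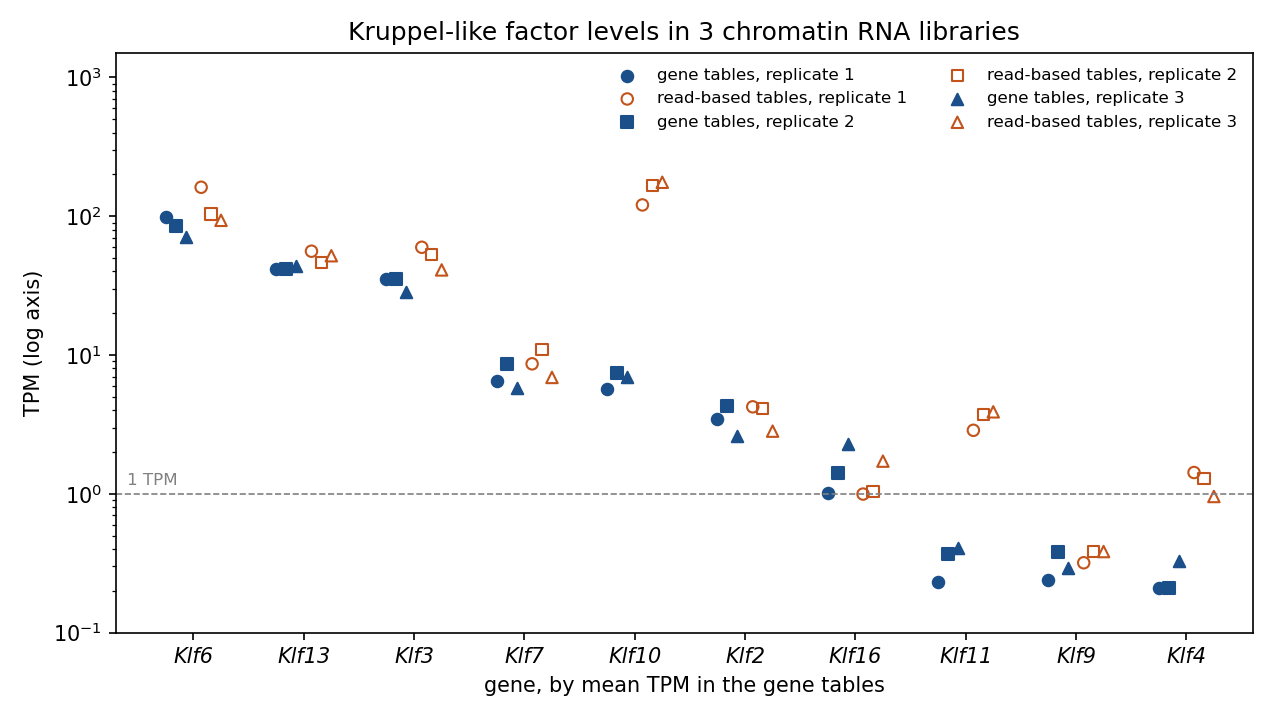
TPM of each member on a log axis, filled for the gene tables and open for the read-based ones, with 1 symbol shape per replicate and a dashed line at 1 TPM. Filled symbols fall from 98.8 TPM for Klf6 to 0.21 for Klf4, and the open symbols of Klf10, at 121 to 176 TPM, stand far above its filled ones.

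The order of levels was compared between neighbours within each library, as a difference of log2(TPM + 0.1). A step was counted as beyond the spread when it had 1 sign in all 3 libraries and a mean above its SD. Of 9 steps, 6 met this. The widest was from Klf3 to Klf7, where the differences were 2.41, 2.01 and 2.27, a mean of 2.23 ± 0.20. Klf6 lay above Klf13 by 0.98 ± 0.28, Klf10 above Klf2 by 0.95 ± 0.36, and Klf16 above Klf11 by 1.89 ± 0.29. The Klf16 to Klf11 step turned around in the read-based tables, to -1.44 ± 0.30. Klf13 lay above Klf3 by only 0.37 ± 0.22. By counts without length scaling (CPM) that step turned around, to -0.73 ± 0.21, and in the read-based tables it was 0.01 ± 0.29. Klf2 lay above Klf16 by 1.13 ± 0.82. This step was 1.67 and 1.53 in replicates 1 and 2 but 0.19 in replicate 3, and it was not beyond the spread without replicate 1 (0.86 ± 0.95) or without replicate 2 (0.93 ± 1.05), nor in CPM (0.57 ± 0.84). Klf7 and Klf10, Klf11 and Klf9, and Klf9 and Klf4 did not differ beyond their spread, with mean steps of 0.06, 0.10 and 0.21. Each of these calls depended on the scale or the tables. In CPM, Klf7 lay above Klf10 by 1.19 ± 0.25 and Klf9 above Klf4 by 0.86 ± 0.30, both beyond the spread. In the read-based tables, Klf11 lay above Klf9 by 2.95 ± 0.11, while Klf10 lay above Klf7 and Klf4 above Klf9, with steps of -4.12 ± 0.47 and -1.51 ± 0.37. With 3 libraries the exact two-sided sign-flip test cannot give a p below 0.25, and it gave 0.25 for each of the 6 steps with 1 sign.

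**Figure D2:**
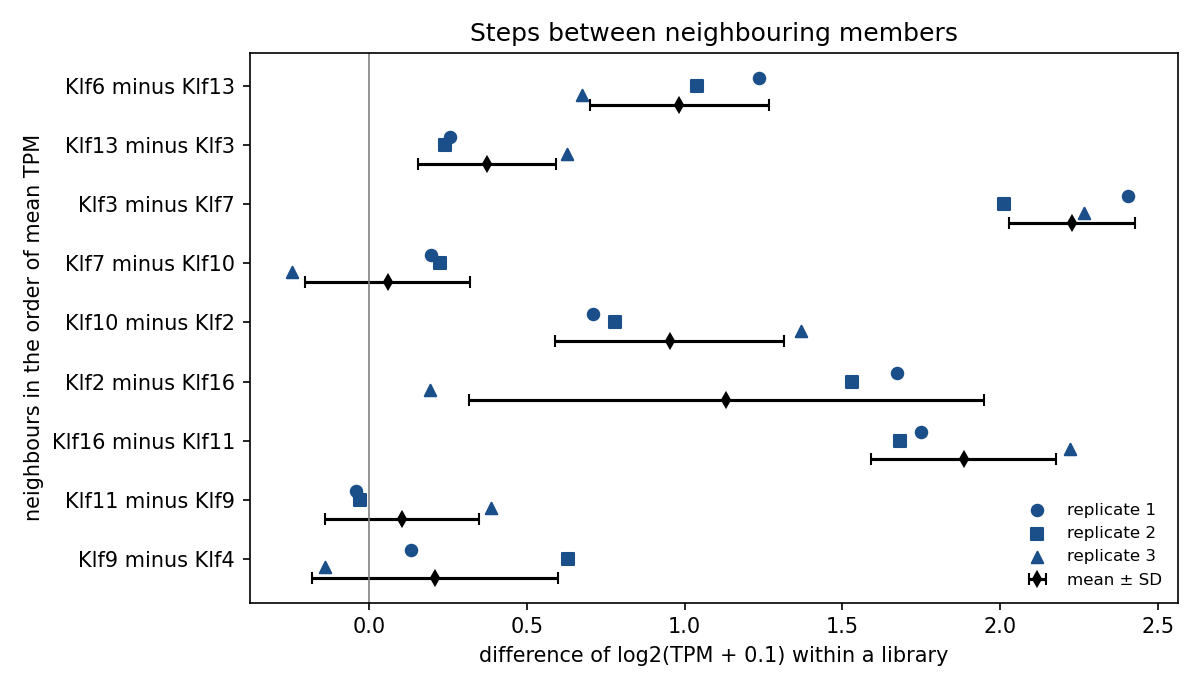
Difference of log2(TPM + 0.1) between neighbours in the order of mean TPM, with 1 symbol per replicate and the mean ± SD (diamond, n = 3) under each row. The step from Klf3 to Klf7 lies at 2.01 or more in all libraries, and the Klf7 to Klf10 step crosses 0.

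Whether members varied between replicates more than other genes of like level was asked with an intercept-only edgeR fit. No member was called. Of the 10 members, 9 passed the filter on low counts and Klf4 did not. The goodness-of-fit test, adjusted by the Benjamini-Hochberg method, called 166 of 14789 genes (1.12%). Klf16 alone had an unadjusted p below 0.05, at 0.0489, and its adjusted p in edgeR was 0.814. Klf16 was at 2.30, 2.95 and 5.24 CPM, with replicate 3 above the others. Klf13 was at 60.2, 60.9 and 64.0 CPM, and 8.46% of 3120 genes of like level had a lower SD. DESeq2's dispersion outliers, 61 genes in all, held no member either. In simulated counts, the edgeR step recovered 91.9% of genes changed 4-fold in 1 library but 20.8% of those changed 2-fold, so a 2-fold difference in 1 library could go uncalled.

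Part of the TPM of the 3 highest members lay on transcripts that are annotated as retained introns, and the share depended on the unit and the tables. Over all 10 members, such transcripts held 40.2%, 44.4% and 42.2% of TPM in replicates 1, 2 and 3, where all protein-coding genes held 37.1% ± 0.561. By expected counts that order turned around, with 19.5% ± 1.30 for the members and 23.7% ± 0.768 for all protein-coding genes, and in the read-based tables the shares were 24.4% ± 5.08 and 33.5% ± 0.409. Among members, only Klf3, Klf6 and Klf13 have annotated transcripts of this type, and 63.1% of detected protein-coding genes do. Among those detected genes, the median share was 45.6%, with quartiles of 29.6% and 61.1%.

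By TPM, Klf13 carried the largest share of the 3, and by expected counts Klf3 did. The retained-intron transcript of Klf13 held 80.8%, 77.9% and 80.4% of the gene's TPM, a mean of 79.7% ± 1.56. Of detected genes with such a transcript, 94.2% had a lower share. The Klf13 transcript of this type, Klf13-203, is a single exon of 934 bases that lies wholly in intron 1 of Klf13-201. It was at 33.8 ± 1.54 TPM, while the spliced coding transcript Klf13-201 was at 6.42, 7.85 and 6.91 TPM. Klf13-203 held 35.1% ± 3.60 of the gene's expected counts and 61.4% ± 3.20 of its read-based TPM.

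In Klf3 the share was 59.2%, 64.6% and 56.3% of TPM, 54.7% ± 2.85 of expected counts and 37.0% ± 1.95 of read-based TPM. It lay on Klf3-204, of which 96.5% is intronic relative to Klf3-201, at 10.1 ± 2.39 TPM, and on Klf3-203, of which 81.8% is intronic, at 9.72 ± 1.08 TPM. The coding transcript Klf3-201 was at 11.2, 9.91 and 8.80 TPM. By leading coding transcript in this set, therefore, each Klf3 library lay above each Klf13 library, the opposite of the order by gene TPM. In the read-based tables Klf3-201 and Klf13-201 overlapped, at 9.15, 6.43 and 6.30 TPM and at 6.54, 6.50 and 6.45. The leading coding transcript of Klf13 was another one there, Klf13-202, at 12.0, 11.1 and 12.4 TPM. It lay above Klf3-201 in every library, as in the order by gene TPM.

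In Klf6 the share was 23.4%, 31.6% and 23.9% of TPM, the lowest of the 3. It was 4.85% ± 0.970 of expected counts and 38.0% ± 4.25 of read-based TPM, the latter within 1 SD of the Klf3 share. Klf6-202, whose start is printed above, was at 22.3 ± 5.15 TPM, and 12.3% of its 799 bases are intronic relative to Klf6-201. The remaining bases are shared with exons of Klf6-201, which was at 75.2, 58.4 and 53.1 TPM. Klf6-201 exceeded Klf3-201 in every library.

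**Figure D3:**
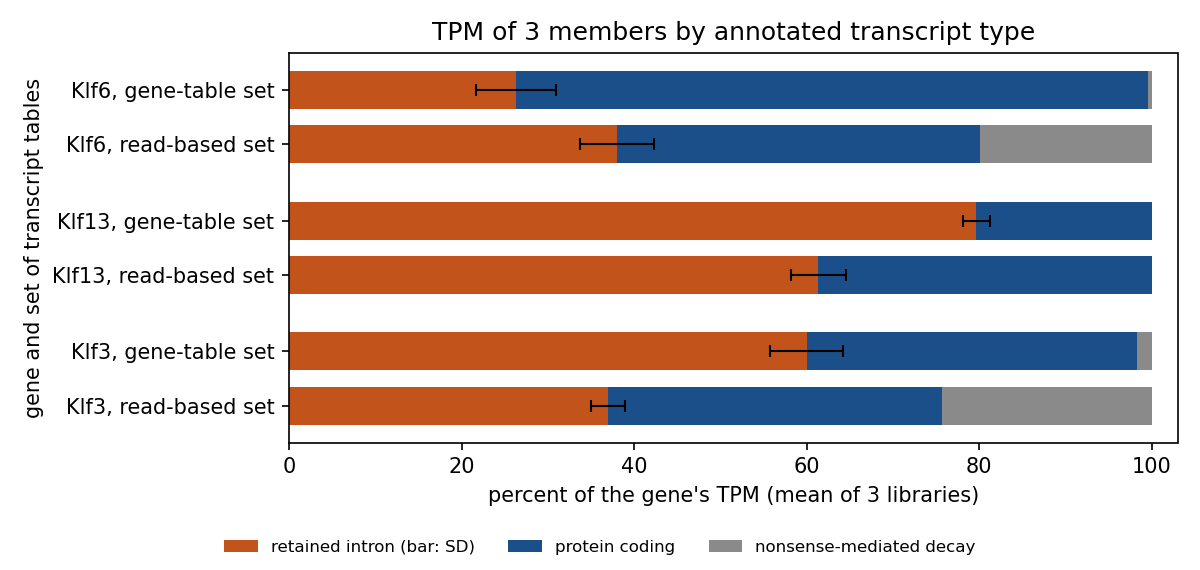
Mean percent of the TPM of Klf6, Klf13 and Klf3 on each annotated transcript type, in the transcript tables of the first set (as the gene tables) and of the read-based set, with the SD of the retained-intron share as error bar (n = 3). Retained-intron transcripts make up 79.7% of Klf13 in the first set and 61.4% in the second.

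Among the other 7 members, the leading transcript was protein-coding. Klf2 and Klf16 have 1 transcript each, Klf2-201 and Klf16-201. Klf7-202 held 62.8% ± 5.49 of Klf7, Klf9-201 held 91.2% ± 9.24 of Klf9 and Klf4-201 held 85.4% ± 15.2 of Klf4. Klf11-201 held all of Klf11. Klf10 was shared between Klf10-201, at 2.68 ± 0.171 TPM, and Klf10-202, at 2.65 ± 0.548 TPM, which share their inner exons and differ in the first. In the read-based tables Klf7-202 held 39.4% ± 7.05 of Klf7, and in replicate 2 its 31.8% was below the 42.9% of Klf7-203.

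Levels were then compared gene by gene with the read-based tables, whose transcripts were summed per gene here. For 7 members the mean TPM of this read-based set was 0.798 to 1.56 times that of the gene tables, where the median over 10050 detected protein-coding genes was 1.30 and the 95th percentile 3.08. Klf10 stood apart. It was at 121, 166 and 176 TPM in the read-based tables, 23.1 times its mean in the gene tables, which made it the highest of the 10 members there by mean TPM, although Klf6 was higher in replicate 1, at 162 TPM. Only 0.0299% of detected protein-coding genes had a higher ratio, and none of 3812 genes of similar level did.

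The gap in Klf10 lay on 1 transcript of 326 bases. Klf10-204 was at 111, 155 and 163 TPM in the read-based tables, on 276, 653 and 612 estimated counts, and had 1 expected count in each library in the other set. Without it, Klf10 was at 11.0 TPM in the read-based tables, the fourth highest member. Its exon 2, printed above, holds the run of 33 A. Of its 296 stretches of 31 bases, 15 also occur in transcripts of 210 other genes, all of them within bases 168 to 212, which span that run. Across the annotation, 210 transcripts have a run of at least 31 A or T, and Klf10-204 ranked second among them by read-based TPM. Of these transcripts, 8.10% were at 10 TPM or more and at least 10 times higher in the read-based tables, compared with 2.40% of the transcripts without such a run. For transcripts under 500 bases, this held for 5 of 7 with a run and for 7.12% of those without. Klf10-204 is itself counted among the transcripts with a run in both comparisons, so they are not independent of its gap. What part the run has in the Klf10 gap was not tested. These comparisons were chosen after the values of Klf10 had been seen.

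The read-based tables were also higher for a pair of the low members. Klf11 was at 2.87, 3.71 and 3.90 TPM there, 10.4 times its gene-table mean. Of this read-based TPM, 85.3% ± 8.63 lay on Klf11-201, with 145, 362 and 368 estimated counts. Klf11-201 shares 11 of its 31-base stretches, within bases 1994 to 2034, with 7 other genes. Klf4 was at 1.42, 1.29 and 0.956 TPM, 4.89 times its gene-table mean. Among genes near their level, 10.2% had a higher ratio than Klf11 and 25.1% a higher one than Klf4, while 0.239% and 1.56% of detected genes did. With these tables the detected members were again 7, with Klf11 in and Klf16 out. The cause of the Klf11 and Klf4 differences was not tested. Klf6, Klf3 and Klf13 also differed in how their RNA was divided. Klf6-203, annotated for nonsense-mediated decay, was at 0.46, 0 and 0.44 TPM in the first set. In the read-based set it was at 29.6, 21.2 and 19.5 TPM. Klf6-202 was at 22.3 TPM in the first set and 46.4 TPM in the read-based set. Klf3-207, also annotated for nonsense-mediated decay, was at 0.537 and 12.8 TPM, and the coding transcript Klf13-202 at 1.38 and 11.8 TPM.

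Some member sequence is shared with other genes. Strand treatment is unstated, so it is not known whether reads of a gene and its antisense partner were kept apart. Klf7 was the most exposed. Of the 31-base stretches of Klf7-202, 41.2% also occur in another gene when both strands are read, mainly over bases 4182 to 7000, and the genes are Gm26649, antisense to Klf7, and Zfp46. Gm26649 overlaps Klf7 over 3465 bases on the opposite strand and was at 0, 0 and 0.13 TPM. In Klf3-201, 7.74% of stretches were shared, most of them in the first 405 bases. Klf2, Klf6, Klf9 and Klf16 shared none.

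Genes annotated within 10 kb numbered 15, around 7 of the members, and Klf2, Klf4 and Klf10 had none. A mean TPM of 1 or more was reached by 6 of them. C230096K16Rik, on the same strand as Klf3 and inside it, was at 18.6, 17.5 and 13.7 TPM, and Gm20033, on the opposite strand across the start of Klf3, was at 2.06, 1.89 and 1.82 TPM. Within Klf13 and on the opposite strand lay E030018B13Rik, at 14.7, 11.0 and 12.6 TPM, and Gm27252, at 3.09, 2.04 and 2.74 TPM. Near Klf16, Rexo1 was at 24.9, 34.3 and 30.2 TPM, 5564 bases away, and Abhd17a was at 2.64, 4.17 and 3.13 TPM. By TPM, Klf16 was thus lower than both flanking coding genes in every library. By expected counts, Klf16 had 33, 58 and 91 and Abhd17a 34, 74 and 60, so Klf16 was the higher of this pair in replicate 3.

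The rest of the Kruppel-like and Sp family was mostly undetected in these libraries. Of 16 other family genes, 4 were detected, where 45.6% of all protein-coding genes were. All 4 were Sp factors, which bind similar GC-rich sites. Sp3 was at 65.0, 67.1 and 57.9 TPM, between Klf6 and Klf13. Sp1, the general GC-box activator, was at 13.9 ± 1.71 TPM, and Sp4 at 3.66 ± 0.875. Listed at 0 in all 3 gene tables were 8 genes, Klf5, Klf14, Klf17, Sp5, Sp6, Sp7, Sp8 and Sp9, where 3 counts would be 0.222, 0.150 and 0.165 CPM. Klf12, singled out after its values were seen, was at 0, 0.20 and 0 TPM by the gene tables but at 12.9 ± 0.886 TPM by the read-based ones.

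A chosen list of cofactor genes was detected in full as RNA, and protein was not measured. Of 15 cofactor genes, 15 were detected, where 45.6% of all protein-coding genes were. The highest were the nuclear receptor corepressor gene Ncor1 at 211 ± 13.2 TPM, the acetyltransferase gene Ep300 at 89.2 ± 8.86, and Wwp1, the gene of a ubiquitin ligase, at 77.2 ± 6.59. The lowest was Sap30, a component of the Sin3 complex, at 4.65 ± 0.908 TPM. The median of log2(TPM + 0.1) was 4.75 ± 0.18 for the cofactors, 2.23 ± 0.26 for the 10 members and -0.43 ± 0.13 for all protein-coding genes.

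Inputs known to act on members were read from lists, and their counts stand beside the 45.6% of all protein-coding genes that were detected. Of 6 genes of the ERK5-MEF2 pathway, which is known to induce Klf2 and Klf4, 6 were detected, with Mef2a at 77.2 ± 11.1 TPM, Mef2c at 42.4 ± 3.66, Map3k3 at 37.9 ± 3.81 and, as the lowest, the ERK5 gene Mapk7 at 21.5 ± 2.58. Every one of them lay above Klf2 and Klf4 in every library. Of 7 TGF-beta pathway genes, 6 were detected. In the read-based tables, where 56.2% of protein-coding genes were detected, all 7 were, with Smad7 at 1.76 ± 0.333 TPM. The levels that follow are from the gene tables. The ligand gene Tgfb1 was at 53.9 ± 2.89 TPM, Smad3 and Smad4, the genes of its signal transducers, at 14.2 ± 0.852 and 13.5 ± 1.44, and the feedback inhibitor gene Smad7, the lowest, at 0.28, 1.09 and 0.79 TPM. Of 5 glucocorticoid genes, 4 were detected. The receptor gene Nr3c1 was at 36.0 ± 2.16 TPM, its targets Tsc22d3 and Per1 at 13.4 ± 2.05 and 9.53 ± 2.37, and Zbtb16 was the lowest at 0.03, 0.05 and 0.06 TPM. No tested gene of these lists was called in the edgeR goodness-of-fit test, which called 1.12% of all genes tested.

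**Figure D4:**
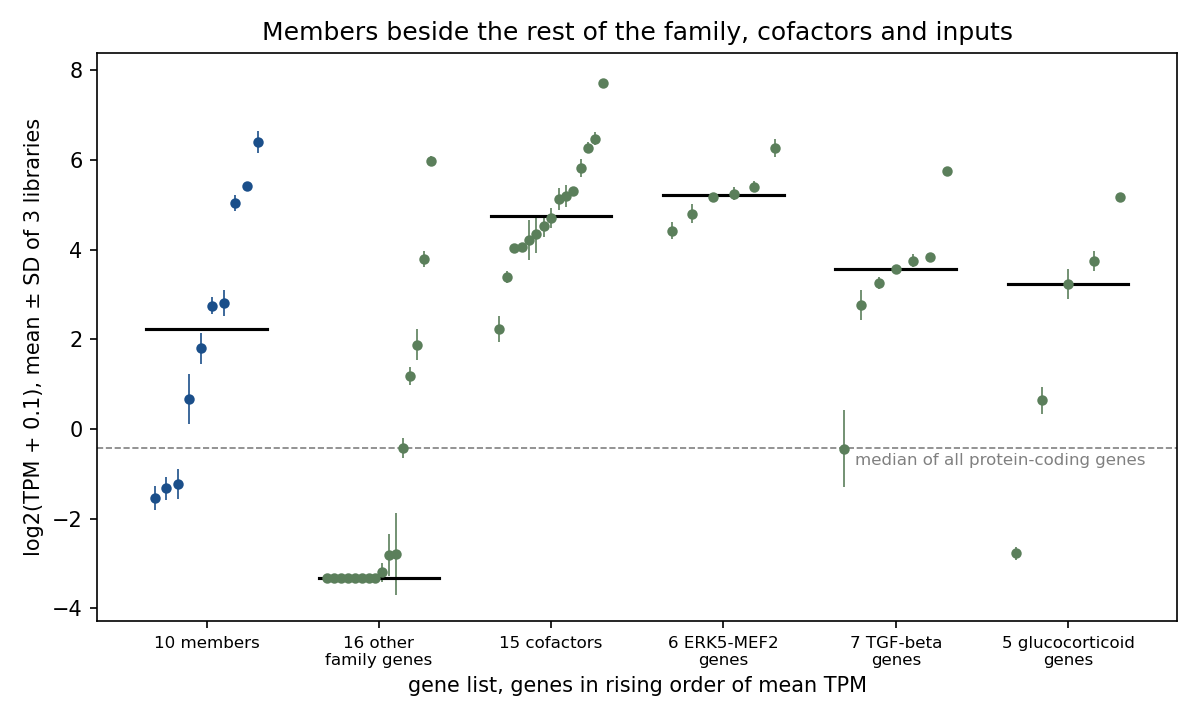
Mean ± SD (n = 3) of log2(TPM + 0.1) for each gene, grouped by list and sorted by mean TPM, with the list median as a black line and the median of all protein-coding genes dashed. The members' median is 2.23, and 8 of the 16 other family genes lie on the floor of the axis at a TPM of 0.

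The family's own binding motifs were searched in the promoters of its members. The RefSeq table (GRCm38.p6), which covers 250 bases before to 50 bases after a gene's start, held 8 of the 10 members, all but Klf10 and Klf16. Read on both strands, the GC box GGGCGG was in 7 of the 8, and in 35.7% of all 32851 promoters. CACCC was in 5 of the 8 and in 57.5% of all promoters, and CCAAT in 4 of the 8 and in 37.4%. TGANTCA was in Klf9 alone (7.81% of all promoters), and the MEF2 consensus in Klf2 alone (3.19%). TGACGTCA, TATAAA and the ISRE, NF-kB and CArG consensus were in none of these windows. GC content ran from 58.3% for Klf7 to 77.7% for Klf11, where the median promoter had 52.7%. GC boxes numbered 6 in Klf3, 4 in Klf4 and in Klf11, 3 in Klf13, 2 in Klf2, 1 in Klf6 and in Klf7, and 0 in Klf9. A match is a description of the letters and not a site.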

How the data were processed

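Chromatin-fraction RNA of 3 macrophage libraries was analysed. Per the file headers and accompanying notes, the authors deposited gene and transcript tables, with expected counts and TPM, that start from reads aligned to the transcriptome (mm10, GENCODE M21), and read-based transcript tables of estimated counts and TPM. Their columns are those RSEM and kallisto write. Tools, versions and strand setting were not given in the sources used here. Entries other than genes (0.283% to 1.39% of expected counts) stayed out of library sizes and tests. TPM sums to a fixed total, so abundant short RNAs lower all other genes.

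The members and lists were chosen with earlier results of these data known. Named were all members, the 3 highest genes and the lowest of each list and any called in the spread test, genome neighbours at a mean TPM of at least 1, and the leading transcript of each member. Shares were taken per library, and log2 used a pseudocount of 0.1. Expected counts were rounded for edgeR 4.0.16 (R 4.3.3; filterByExpr, TMM, trended dispersion, intercept only), whose deviance was tested against chi-square and called at an adjusted p below 0.05. That step was tested on simulated data. A CPM scale was counts over TMM-scaled library size. Alternatives covered DESeq2 1.42.0, filters, thresholds, pseudocounts, rescaled TPM, read-based tables and leaving out each replicate. The shared 31-base stretches, runs of A or T, exon overlaps and ratios between tables, the read-based Klf10 level without Klf10-204 and the read-based shares of the members' TPM were added after seeing the data. Other steps used Python 3.11.15, numpy 2.4.6 and pandas 2.3.3. The planned comparison of zinc finger protein sequences was not run.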

Additional observations from a re-analysis of the deposited data

How the results depend on the processing

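The detected members numbered 5 at a threshold of 5 TPM and 7 under every other alternative run. Rescaling TPM to protein-coding nuclear genes raised all members 3.39- to 3.47-fold. The Klf13 step above Klf3 reversed in CPM (-0.73). In the read-based tables the Klf16 step above Klf11 (-1.44), the Klf7 step above Klf10 (-4.12) and the Klf9 step above Klf4 (-1.51) reversed, and Klf13 and Klf3 were level (0.01). With a replicate left out, the Klf11 step above Klf9 ran from -0.037 (without replicate 3) to 0.18. The edgeR calls over all genes numbered 166, 273 with read-based counts and 56 to 76 with a replicate left out (2 libraries), and DESeq2 outliers numbered 61; the count of members called was 0 in each of these. The members' retained-intron share was 42.3% by TPM, 19.5% by expected counts and 24.4% in the read-based tables. At 5 TPM, 2 of the 16 other family genes were detected instead of 4. The causes were not tested. No paired analysis was possible because there is 1 group. Klf4, Klf9 and Klf11 had 8 to 26 counts a library in the gene tables, so counting error is wide there.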
